A study of Mus musculus with 18 samples.

Results

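The genes described here encode proteins with which a cell marks damaged mitochondria and hands them to autophagy. They were chosen by name, not by a measured value, though with earlier results of these data known. The rule names 10 genes of the 46983 gene symbols in the deposited count table. The 9 described are Pink1, Bnip3, Bnip3l, Fundc1, Sqstm1, Optn, Mfn2, Map1lc3a and Map1lc3b. All 9 passed the filter on low counts in each fit, so each is tested in every comparison below.

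Mitophagy is the removal of whole mitochondria by autophagy, and heart muscle depends on it because its cells are packed with mitochondria and are not replaced readily. In one route the kinase PINK1 gathers on depolarised mitochondria and starts the tagging of outer membrane proteins with ubiquitin; adaptors such as p62 and optineurin then tie the tagged organelle to LC3 on the growing autophagosome. In the other route receptors seated in the outer membrane, BNIP3, NIX and FUNDC1, bind LC3 themselves, without the ubiquitin tag.

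RNA came from hearts of adult mice, operated at 8 to 10 weeks of age, 6 weeks after a sham operation or after LAD ligation, which ties off a coronary artery and infarcts the heart. The mice were Salv cKO or the controls that the labels call wild type; Salv stands for the scaffold protein of Hippo signalling encoded by Sav1, and cKO for conditional knockout. For the Cre driver, the ribosome tag and the time of deletion the answer is not given in the sources used here. Nor do they say whether a group's libraries come from separate animals or whether TRAP and total RNA share hearts. Each p-value therefore sets a difference against the spread of libraries within groups, which may not be that of animals. There were 18 libraries in 6 groups of 3. TRAP RNA, that is RNA pulled down with ribosomes and labelled as specific to cardiomyocytes, was sequenced from sham control, sham Salv cKO, infarcted control and infarcted Salv cKO hearts, and total RNA of the whole heart from infarcted control and infarcted Salv cKO hearts.

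Library totals ran from 3240871 to 24135877 counts. Mitochondrial genome transcripts took 0.202% to 0.532% of the counts in TRAP RNA and 15.8% to 29.0% in total RNA. Cardiomyocyte markers (6 genes, 0 of them at 0 counts) summed to 64409 to 86982 CPM in TRAP and 34596 to 46254 CPM in total RNA, and fibroblast markers (6 genes, 0 at 0 counts) to 550 to 1609 and 1922 to 4332 CPM. Sham control library 2 held 567 counts of Y chromosome genes and sham Salv cKO library 3 held 659, and each of the other 16 libraries held 7 or fewer.

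Sav1, the gene named by the knockout, was read in every library. In sham TRAP it stood at 7.72, 5.51 and 5.70 CPM in control and at 2.35, 0.993 and 8.76 CPM in Salv cKO, from 7, 3 and 34 counts. The library labelled sham Salv cKO 3 was the highest of the 12 TRAP libraries and so goes against its label, and every direction drawn from sham Salv cKO includes it unless a value without it is given. Infarcted TRAP held 4.32 to 6.63 CPM in control and 3.48 to 5.73 CPM in Salv cKO, which overlap. Sav1 did not differ by genotype past the test: its log2 difference was -0.57 (SE 0.51, adjusted p = 0.596) in sham TRAP, -0.15 (SE 0.47, adjusted p = 0.986) in infarcted TRAP and -0.30 (SE 0.21, adjusted p = 0.530) in total RNA. Without the library labelled sham Salv cKO 3 the sham TRAP difference was -1.90 (SE 0.54, edgeR adjusted p = 0.0976). Which part of Sav1 was deleted is not given in the sources used here, so these counts are only a partial check of the labels.

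A pair of upstream stretches is printed because these are the members with a TEAD core or an E-box before their start; TEAD factors are the DNA partners of YAP, the protein that Hippo signalling restrains. They are bases before the annotated start in GRCm38, taken from RefSeq, which held promoters of 7 of the 9 genes (not of Bnip3l or Map1lc3a). The motifs searched, on both strands of the 250 bases before the RefSeq start, were GGAATG, the core of the TEAD element; CACGTG, the E-box; and ACGTG, the core of the hypoxia response element, which lies within CACGTG. Capitals mark a match.
Map1lc3b, chr8:121590188-121590360, plus strand: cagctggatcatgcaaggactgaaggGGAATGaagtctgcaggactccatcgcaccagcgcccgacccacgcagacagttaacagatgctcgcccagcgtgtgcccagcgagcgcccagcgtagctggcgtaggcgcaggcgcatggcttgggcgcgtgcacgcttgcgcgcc
Bnip3, chr7:138909520-138909756, minus strand: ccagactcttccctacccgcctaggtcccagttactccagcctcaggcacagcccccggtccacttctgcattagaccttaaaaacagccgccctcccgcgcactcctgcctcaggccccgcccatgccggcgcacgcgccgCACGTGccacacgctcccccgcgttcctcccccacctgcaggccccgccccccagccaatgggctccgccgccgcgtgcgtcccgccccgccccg
Each printed stretch stops at the start annotated in GENCODE, so it holds 173 (Map1lc3b) or 237 (Bnip3) of the 250 bases searched. GGAATG was found in 1 of the 7 genes, Map1lc3b, with its first base 224 bases before the RefSeq start, and in 12.6% of the 32851 promoters searched. That base lies 147 bases before the GENCODE start. CACGTG was found in 1 of the 7, Bnip3, with its first base 108 bases before the RefSeq start (95 before the GENCODE start), and in 6.02% of promoters. ACGTG was found in Bnip3 and Mfn2 and in 16.6% of promoters. Mfn2 has more than 1 annotated promoter, and not all of them held it. A gene counts here if any of its promoters matches, while the percentages count single promoters. A match describes these letters only, and a window without one says nothing of the factor.

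Levels below are CPM (library-size-scaled counts, with TMM scaling), as mean ± SD of 3 libraries. Sums of cell type markers, above and below, are CPM of the library total without TMM scaling. Differences are log2 fold changes from edgeR's quasi-likelihood test with their standard error (SE). A gene is said to rise or fall where the Benjamini-Hochberg adjusted p over all genes tested is below 0.05.

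None of the 9 genes differed by genotype past the test, in TRAP or in total RNA. After infarction 0 of 9 passed in TRAP with edgeR and 0 with DESeq2, and 0 had an unadjusted p below 0.05, where 0.334% of all genes passed (0.184% higher and 0.149% lower). Their differences ran from -0.34 to 0.23 (adjusted p = 0.770 to 0.999). After sham 0 of 9 passed with edgeR and 0 with DESeq2, and 0 had an unadjusted p below 0.05, where 2.55% of all genes passed (1.36% higher and 1.19% lower). Their differences ran from -0.30 to 0.32 (adjusted p = 0.342 to 0.895). The median of the 9 was -0.01 after infarction and -0.05 after sham, beside 0.00 and -0.03 over all genes. Libraries of the genotypes did not overlap for 0 of 9 after infarction, against 14.6% of all genes, and for 2 of 9 after sham, Optn and Map1lc3b, against 21%.

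In total RNA 0 of 9 passed with edgeR and 0 with DESeq2, and 1 had an unadjusted p below 0.05, where 0.255% of all genes passed (0.185% higher and 0.0695% lower). The differences ran from -0.30 to 0.62. The genotype effect did not differ between TRAP and total RNA past the test in any of the 9, with edgeR or with DESeq2, and 1 had an unadjusted p below 0.05, where 0.43% of all genes passed (0.143% higher and 0.286% lower). In bulk samples fewer cells of a type and less RNA per cell cannot be told apart, and total RNA holds all cell types of the heart.

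Sham Salv cKO libraries held the highest share of mitochondrial genome transcripts in TRAP, 0.383% to 0.532% against 0.202% to 0.308% in sham control. Fibroblast markers summed to 550 to 702 CPM in sham Salv cKO and 624 to 1609 CPM in sham control. By genotype 0 of 6 passed the test, with a median log2 of -0.75. The part of either in values of the sham groups was not tested.

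**Figure D1:**
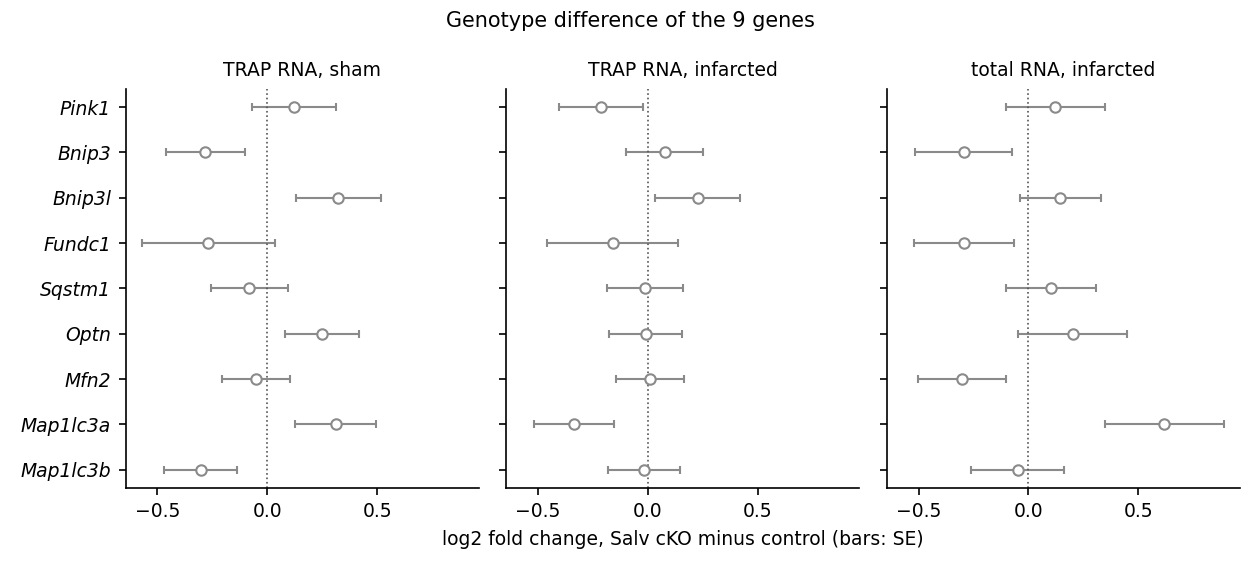
Log2 fold change of Salv cKO minus control (horizontal axis; bars are SE) for each of the 9 genes (vertical axis) in sham TRAP, infarcted TRAP and infarcted total RNA; open grey points did not pass the adjusted p threshold of 0.05. All points are open, and those of both TRAP panels lie between -0.34 and 0.32.

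Pink1 encodes the kinase that starts the ubiquitin route. Its TRAP libraries held 1089, 671 and 1264 CPM in sham control and 1023, 1077 and 1193 CPM in sham Salv cKO. After infarction they held 980, 919 and 963 CPM in control and 708, 982 and 782 CPM in Salv cKO. Sham control library 2 was the lowest of the 12, and the genotypes overlapped after both surgeries (log2 0.12, SE 0.19, adjusted p = 0.783 after sham and -0.21, SE 0.19, adjusted p = 0.903 after infarction). Without that library the sham value changed sign, to -0.11 (adjusted p = 0.818), still short of the test. From sham to infarction in Salv cKO the libraries separated, 1097 ± 86.9 against 824 ± 142 CPM, without passing (log2 -0.41, SE 0.19, adjusted p = 0.139).

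Mfn2, mitofusin 2, which fuses mitochondria and is itself phosphorylated by PINK1, was nearly level by genotype in TRAP. Its TRAP group means ran from 428 ± 29.2 in sham Salv cKO to 516 ± 75.1 CPM in infarcted Salv cKO, and the genotype difference was -0.05 (SE 0.15) after sham and 0.01 (SE 0.15) after infarction. In total RNA the genotypes did not overlap, with 812, 633 and 657 CPM in control and 587, 567 and 550 CPM in Salv cKO, but the difference did not pass (log2 -0.30, SE 0.20, adjusted p = 0.517). Libraries did not overlap for 19.4% of all genes in that comparison, and for 1 of the 9 members.

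Bnip3 and Bnip3l encode BNIP3 and NIX, receptors of the outer membrane that are known targets of the hypoxia factor HIF-1; the E-box printed above, in the Bnip3 promoter, holds the core of the hypoxia element. Bnip3 was at 54.4 ± 5.65 CPM in sham control and 54.9 ± 1.63 CPM after infarction. In Salv cKO it was at 44.9 ± 5.84 CPM after sham and 57.9 ± 6.14 CPM after infarction. Its infarction difference was 0.01 (SE 0.18, adjusted p = 0.991) in control and 0.37 (SE 0.18, adjusted p = 0.161) in Salv cKO. Bnip3l was highest in sham Salv cKO, with 79.8, 71.8 and 81.1 CPM, against 58.5, 76.9 and 51.3 in sham control. Infarcted control held 42.8, 49.7 and 61.7 CPM of it and infarcted Salv cKO 53.8, 59.5 and 67.3 CPM. Sham and infarcted Salv cKO libraries of Bnip3l did not overlap, but the difference did not pass (log2 -0.37, SE 0.19, adjusted p = 0.195). Reads of Bnip3l could be split with Bnip3l-ps, a processed pseudogene whose longest match is 99.4% identical; it held 235 counts in all, 105 of them in sham control library 3, or 11.7% of the sum of both there. Adding the copies to Bnip3, Bnip3l and Map1lc3b changed no call.

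Fundc1, another LC3-binding receptor, whose activity in hypoxia is known to be set by its phosphorylation, was the lowest of the 3 receptors per length of exon. Its TRAP means were 14.6 ± 2.49 and 12.2 ± 2.31 CPM in sham control and Salv cKO and 11.0 ± 4.44 and 9.88 ± 1.78 CPM after infarction. Both infarction differences were negative and neither passed (log2 -0.42, SE 0.29, adjusted p = 0.579 in control; -0.31, SE 0.31, adjusted p = 0.518 in Salv cKO).

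The adaptors Sqstm1 (p62) and Optn (optineurin) did not pass by genotype. Sqstm1 libraries held 442, 473 and 314 CPM in sham control and 386, 421 and 354 CPM in sham Salv cKO. After infarction they held 433, 543 and 537 CPM in control, while Salv cKO had 502, 565 and 432 CPM. In Salv cKO the infarcted libraries lay above the sham libraries, without passing (log2 0.37, SE 0.18, adjusted p = 0.149), and in control the value was 0.30 (SE 0.17, adjusted p = 0.476). Optn was 115.6, 115.8 and 116.2 CPM in the 3 sham Salv cKO libraries and 113.5, 93.4 and 86.6 CPM in sham control. These did not overlap, but the difference did not pass (log2 0.25, SE 0.17, adjusted p = 0.459).

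Infarcted and sham TRAP RNA were compared within each genotype, and the members that passed were Map1lc3a and Map1lc3b, in Salv cKO. In control 0 of 9 passed with edgeR, 0 with DESeq2 and 0 had an unadjusted p below 0.05, where 1.08% of all genes passed (0.0878% higher and 0.992% lower); the differences ran from -0.42 to 0.30. In Salv cKO 2 of 9 passed, 1 higher and 1 lower, and 4 had an unadjusted p below 0.05, where 18.2% of all genes passed (7.56% higher and 10.6% lower), so the members' share is near that of all genes. Libraries did not overlap for 4 of 9 members in Salv cKO, against 35.6% of all genes, and for 2 of 9 in control, against 19.1%. The comparisons share no libraries with each other, but each shares its libraries with the genotype comparisons above.

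**Figure D2:**
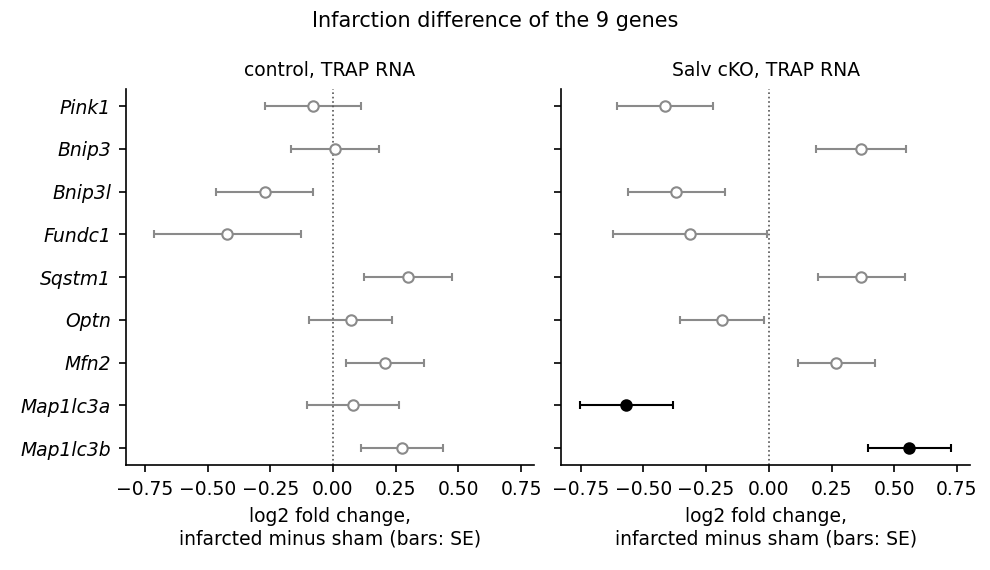
Log2 fold change of infarcted minus sham (horizontal axis; bars are SE) for each of the 9 genes (vertical axis) in control and Salv cKO TRAP RNA; filled black points passed the adjusted p threshold of 0.05. Map1lc3a (-0.57) and Map1lc3b (0.56) are the filled points, both in Salv cKO.

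Map1lc3a and Map1lc3b encode LC3A and LC3B, the ubiquitin-like proteins that are lipidated onto autophagosome membranes and catch the receptors. The genes went opposite ways in Salv cKO. Map1lc3a libraries held 612, 877 and 805 CPM in sham Salv cKO and 451, 621 and 475 CPM in infarcted Salv cKO. The lowest sham library lay just inside the infarcted range. Its mean fell from 764 ± 137 to 516 ± 92.1 CPM (log2 -0.57, SE 0.18, edgeR adjusted p = 0.0360). In control the libraries held 631, 498 and 719 CPM after sham and 697, 700 and 555 CPM after infarction (log2 0.08, SE 0.18, adjusted p = 0.905), and they overlapped.

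Map1lc3b libraries held 73.4, 100.3 and 84.2 CPM in sham Salv cKO and 135, 130 and 115 CPM in infarcted Salv cKO, with no overlap. The mean rose from 86.0 ± 13.5 to 126.7 ± 10.6 CPM (log2 0.56, SE 0.17, edgeR adjusted p = 0.0232). In control it stood at 106.0 ± 3.85 after sham and 128.3 ± 14.0 CPM after infarction, also without overlap, and the difference did not pass (log2 0.27, SE 0.16, adjusted p = 0.491). The genotype effects on both genes were not shown to depend on surgery: the interaction was -0.65 (SE 0.26, unadjusted p = 0.0213, adjusted p = 0.324) for Map1lc3a and 0.29 (SE 0.23, adjusted p = 0.634) for Map1lc3b. No gene of any kind passed that test with edgeR, though 1435 had an unadjusted p below 0.05 and 110 passed with DESeq2, none of them a member (Fundc1 was given no adjusted p there).

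Both calls in Salv cKO were sensitive to single libraries. Map1lc3a lost its call without infarcted Salv cKO library 1 (adjusted p = 0.155) or 3 (0.107), without sham Salv cKO library 2 (0.149) or 3 (0.114), without the libraries with Y chromosome counts (0.0740) and with upper quartile scaling (0.0506). Map1lc3b lost its call without infarcted Salv cKO library 1 (adjusted p = 0.0869) or 2 (0.0676), without sham Salv cKO library 1 (0.0923) or 3 (0.0765) and without the libraries with Y chromosome counts (0.0690). The log2 values stayed between -0.72 and -0.46 for Map1lc3a and between 0.46 and 0.68 for Map1lc3b in all of these fits. Map1lc3b overlaps Zcchc14 on the opposite strand, which held 2418 counts against 21155 for Map1lc3b over all libraries; whether counting used strand is not given in the sources used here.

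The ratio of Map1lc3a to Map1lc3b counts within a library needs no scaling; it describes the same genes in the same libraries and adds no independent support. Its log2 was 3.06, 3.13 and 3.26 in sham Salv cKO and 1.74, 2.26 and 2.05 in infarcted Salv cKO, and these groups did not overlap. In control it was 2.63, 2.21 and 2.72 after sham and 2.56, 2.28 and 2.18 after infarction, which overlap. Map1lc3a made up 89.3% to 90.5% of the counts of both genes in sham Salv cKO and 76.9% to 82.7% in infarcted Salv cKO.

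**Figure D3:**
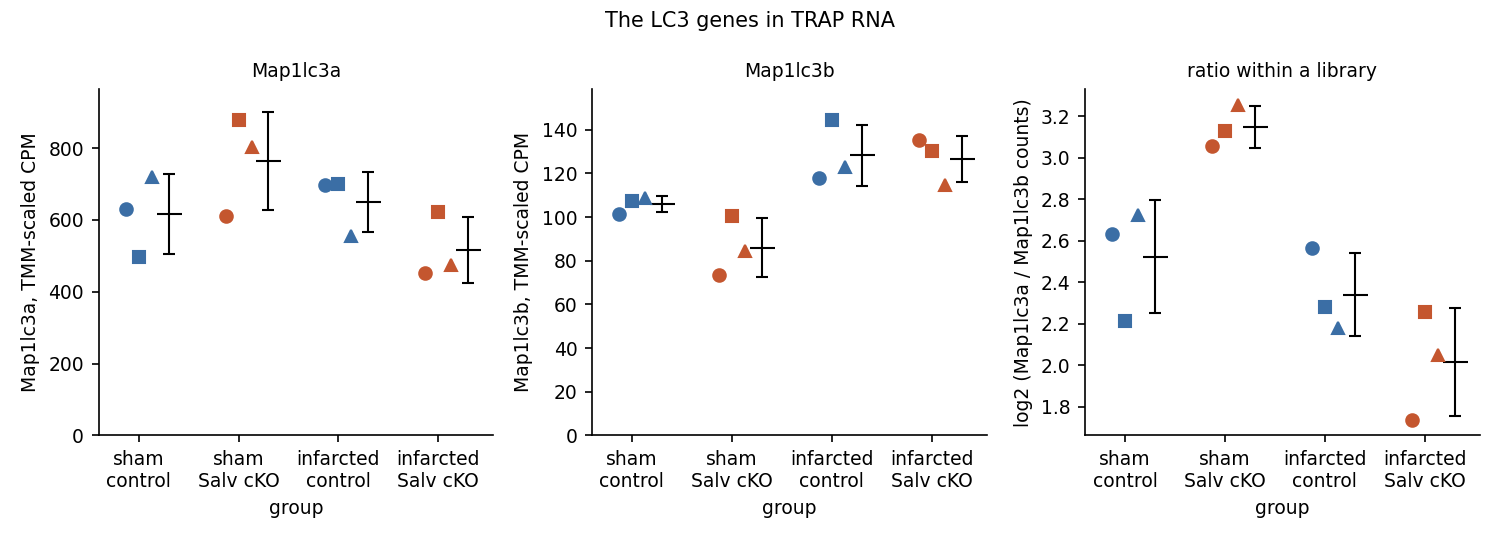
Map1lc3a and Map1lc3b levels (vertical axes, TMM-scaled CPM) and the log2 ratio of their counts in each TRAP library by group (horizontal axis); points are libraries 1 (circle), 2 (square) and 3 (triangle), and the bar is the mean ± SD. The ratio panel does not start at 0; its 3 sham Salv cKO libraries lie from 3.06 to 3.26, above the 3 infarcted Salv cKO libraries at 1.74 to 2.26.

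Markers of other cells were read in the same comparison. Of 6 cardiomyocyte markers 1 was higher and 2 lower after infarction in Salv cKO, and 0 of 6 fibroblast markers passed, with a median log2 of 1.26. Of 3 mural markers 1 was higher, and the highest log2 among them was 1.18. Of 4 endothelial and 4 leukocyte markers tested 0 passed, with medians of -0.31 and -0.84. Fibroblast markers summed to 550 to 702 CPM in sham and 626 to 1357 CPM in infarcted Salv cKO. Their part in the LC3 values was not tested.

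Other genes of the pathway were followed in 5 lists with 73 genes, of which 66 were tested in TRAP and 71 in the fits with total RNA. The first list holds genes around PINK1 (mitofusin 1, porins, Miro proteins, deubiquitinases and the import pore), the second other receptors and adaptors, the third the ATG8 family and the enzymes that attach it, the fourth factors that start autophagy, and the fifth lysosomal genes. By genotype 0 of 66 passed after infarction with edgeR, with 4 at an unadjusted p below 0.05 and 1 passing with DESeq2. After sham 1 of 66 passed, lower in Salv cKO, where 2.55% of all genes passed and 1.19% were lower; 12 of the 66 had an unadjusted p below 0.05, and DESeq2 called 3, all lower. Nbr1, an autophagy adaptor related to p62, fell by 0.87 on the log2 scale in Salv cKO (SE 0.22, adjusted p = 0.0350), from 52.4 ± 4.37 to 28.8 ± 7.50 CPM. That call was lost without sham control library 1 or 3, without sham Salv cKO library 1 or 3, without the libraries with Y chromosome counts (adjusted p = 0.125) and with the 6 sham libraries alone. The median of the 66 was -0.11 after sham and -0.06 after infarction.

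Between sham and infarcted Salv cKO 10 of the 66 passed, 8 higher and 2 lower. In that comparison 18.2% of all genes passed, 7.56% higher and 10.6% lower. Over both directions the share of the 66 that passed was thus not above that of all genes. Nbr1 stood at 28.8 ± 7.50 CPM after sham and rose to 55.9 ± 8.09 CPM after infarction (log2 0.96, SE 0.22, adjusted p = 0.00403). Usp15, a deubiquitinase gene, stood at 13.1 ± 1.76 CPM and rose to 27.1 ± 6.15 CPM (log2 1.05, SE 0.24, adjusted p = 0.00395). Among the genes that process LC3 or attach it to its lipid, Atg12 rose by 1.12, Atg4d by 1.60 and Atg16l1 by 0.65 on the log2 scale (adjusted p = 0.00599, 0.0105 and 0.0389). Atg4d stood at 5.14 ± 4.25 CPM in sham Salv cKO, with a lowest library of 1.32 CPM. The floor of 3 counts was 0.661 to 0.926 CPM of the library total in those libraries. That floor is without TMM scaling, and with it 3 counts stood at 0.993 CPM in sham Salv cKO library 2. Of the genes that start autophagy, Becn1 (Beclin 1) stood at 4.44 ± 1.18 CPM and rose to 12.3 ± 1.82 CPM (log2 1.45, SE 0.37, adjusted p = 0.00986). The kinase gene Ulk1 stood at 38.5 ± 5.43 CPM and rose to 63.9 ± 4.63 CPM (log2 0.73, SE 0.18, adjusted p = 0.00782). Both genes that fell, Wipi2 by 0.79 and Wipi1 by 0.52, encode proteins that read the lipid mark of the forming membrane. The lysosomal protease gene Ctsl rose by 0.66. Each of the 8 rises started from a sham Salv cKO mean below that of sham control. Mean CPM in sham control, sham Salv cKO, infarcted control and infarcted Salv cKO was 52.4, 28.8, 58.4 and 55.9 for Nbr1. For Atg12 it was 14.8, 7.78, 15.1 and 16.9, for Atg16l1 28.5, 18.9, 26.5 and 29.8, and for Ctsl 74.9, 49.6, 83.0 and 78.5. For Ulk1 it was 44.3, 38.5, 63.3 and 63.9, and for Usp15 17.1, 13.1, 20.3 and 27.1. Becn1 had means of 9.65, 4.44, 8.72 and 12.3 CPM in that order, and Atg4d of 11.0, 5.14, 16.5 and 15.5 CPM. After infarction the means of both genotypes lay above sham control, except for the control means of Atg16l1 and Becn1.

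Of these 10 genes, 6 (Usp15, Nbr1, Atg12, Ulk1, Becn1 and Wipi2) passed whichever single library was left out. Atg16l1, Wipi1, Ctsl and Atg4d did not, with highest adjusted p-values of 0.137, 0.175, 0.0856 and 0.0550, and 8 of the 10 passed once both libraries holding Y chromosome transcripts were left out. In control 0 of 66 passed with edgeR, with 9 at an unadjusted p below 0.05; DESeq2 called 5. No gene of the lists passed the interaction of genotype and surgery with edgeR (9 at an unadjusted p below 0.05), and 0 of the 30 list genes to which DESeq2 gave an adjusted p passed it, so that difference between genotypes was not shown.

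TRAP and total RNA of infarcted hearts were compared with both genotypes together. In that comparison 7 of 9 members passed, 6 higher and 1 lower in TRAP, where 34.4% of all genes were higher and 39.9% lower (74.2% in either direction), so the share of members that passed was close to that of all genes. Of the 6 cardiomyocyte markers 3 were higher and 2 lower in TRAP, with log2 values from -0.53 to 3.69. All 4 endothelial and 3 mural markers were lower, as were 4 of 6 fibroblast and 3 of 4 leukocyte markers. The part of these markers in the members' values was not tested. The median of the 9 was 0.42, beside -0.15 over all genes tested.

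**Figure D4:**
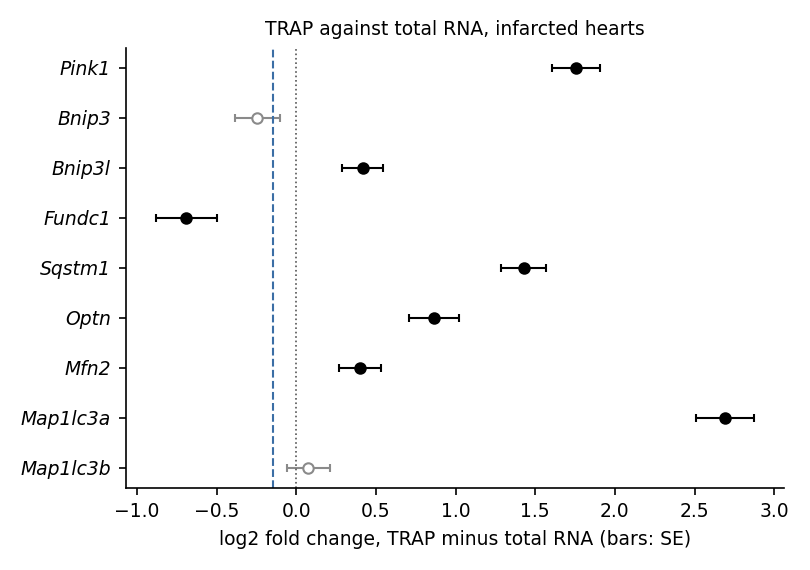
Log2 fold change of TRAP minus total RNA in infarcted hearts, both genotypes (horizontal axis; bars are SE), for each of the 9 genes (vertical axis); filled black points passed the adjusted p threshold of 0.05, and the dashed line is the median of all genes tested (-0.15). Map1lc3a (2.69), Pink1 (1.75) and Sqstm1 (1.43) lie farthest to the right and Fundc1 (-0.69) is the filled point on the left.

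Map1lc3a had the largest difference, 771 ± 157 CPM in 6 TRAP against 121 ± 50.0 CPM in 6 total RNA libraries (log2 2.69, SE 0.18, adjusted p = 1.22e-11). Map1lc3b was at 168 ± 16.3 and 160 ± 26.4 CPM (log2 0.07, SE 0.14, adjusted p = 0.627), and its libraries overlapped. Pink1 stood at 1173 ± 167 against 347 ± 62.3 CPM (log2 1.75, SE 0.15, adjusted p = 5.54e-10) and Sqstm1 at 662 ± 77.7 against 246 ± 36.9 CPM (log2 1.43, SE 0.14, adjusted p = 5.00e-09). In these genes, and in Optn (log2 0.86, SE 0.16, adjusted p = 3.36e-05), no TRAP library overlapped a total RNA library. These are 4 of the 9 members, near the share of all genes, 53.1%.

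Bnip3l (log2 0.42, SE 0.13, adjusted p = 0.00688) and Mfn2 (log2 0.40, SE 0.13, adjusted p = 0.0103) were higher by less, with overlapping libraries. Fundc1 was the member that was lower in TRAP, at 13.7 ± 3.85 against 22.1 ± 5.28 CPM (log2 -0.69, SE 0.19, adjusted p = 0.00258). Bnip3 did not pass (log2 -0.24, SE 0.14, adjusted p = 0.120).

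The smaller differences depended on the scaling. Upper quartile scaling moved the median of all genes from -0.15 to -0.44; Bnip3l (0.13, adjusted p = 0.392) and Mfn2 (0.11, adjusted p = 0.460) then lost their calls, Bnip3 gained one (-0.53, adjusted p = 0.00137), and Map1lc3b changed sign without passing (-0.22, adjusted p = 0.139). With no filter the first pair also lost their calls and Bnip3 gained one. Map1lc3a, Pink1, Sqstm1, Optn and Fundc1 passed in the same direction under both. In TRAP 4 of 4 endothelial, 3 of 3 mural, 3 of 4 leukocyte and 4 of 6 fibroblast markers were lower and 0 higher; their part in these differences was not tested.

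In total RNA Map1lc3a was the member with the largest genotype difference, at 110, 103 and 139 CPM in control and 270, 139 and 131 CPM in Salv cKO. Salv cKO library 1 stood apart from the others. The difference did not pass (log2 0.62, SE 0.27, adjusted p = 0.339) and was 0.20 without that library. Its genotype effects in TRAP and total RNA differed by -0.98 (SE 0.35, adjusted p = 0.202), which did not pass. With 1 library left out that value ran from -1.17 to -0.55, and it passed in none of those fits.

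Of the 71 pathway genes tested between the fractions, 28 were higher and 25 lower in TRAP, beside 34.4% and 39.9% of all genes. The TRAP fit tested 66 list genes, so the 71 include genes that did not pass the filter there. Such a gene can enter through its total RNA counts, which favours the lower direction. Upper quartile scaling turned that split to 23 higher and 33 lower. Around PINK1, Park7, the DJ-1 gene (log2 2.56), Tomm22 of the import pore (2.30), Rhot2, a Miro protein gene (2.20), and the ubiquitin ligase gene Mul1 (1.81) were higher, each with an SE of 0.153 or less. Of the receptors and adaptors Phb2 (1.52) and Fkbp8 (1.24) were higher, and Tbk1, the kinase of optineurin (-1.76), and Tax1bp1 (-1.09) lower. Of the LC3 conjugation genes Gabarapl1 (1.22) and Atg7 (1.20) were higher, and Atg3 (-1.66) and Atg4c (-2.41) lower. Of the initiation genes Atg101 (3.20), Wipi2 (1.69) and Wipi1 (1.41) were higher and Atg9a (-4.50) lower. In infarcted TRAP libraries Atg4c held 0.579 to 1.84 CPM and Atg9a 0.215 to 1.74 CPM, near the floor of 3 counts. Neither passed the filter on low counts in the TRAP fit, so both were tested here through their total RNA counts. The filter thus favoured their direction. Of the lysosomal genes the transcription factor gene Tfeb (2.04), Ctsd (1.15) and Lamp1 (0.71) were higher and Lamp2 (-2.06) lower. All 20 of these calls held with each library left out and under the other settings tried. For Atg4c and Atg9a that adds no support, because the filter favoured their direction. By genotype 0 of 71 passed in total RNA, and 0 of 71 differed in their genotype effect between the fractions; 3 and 10 had an unadjusted p below 0.05, and DESeq2 called 0 and 1.

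Compared per kilobase of annotated exon, which puts genes on one scale, sham control TRAP RNA held Map1lc3a at 521 ± 94.0 CPM per kilobase, Pink1 at 377 ± 114, Sqstm1 at 122 ± 25.1 and Mfn2 at 85.5 ± 5.74. Optn followed at 26.1 ± 3.73, Bnip3 at 24 ± 2.5, Bnip3l at 16.1 ± 3.42, Map1lc3b at 14.1 ± 0.512 and Fundc1 at 6.22 ± 1.06 CPM per kilobase. Libraries of neighbours in this order overlapped for Map1lc3a and Pink1, Optn and Bnip3, and Bnip3l and Map1lc3b. By the longest coding transcript instead of all exons, Map1lc3b moved from rank 8 to rank 5 and the order was otherwise kept apart from the genes it passed.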

How the data were processed

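Gene expression was measured by RNA sequencing on the Ion Proton in 18 mouse heart libraries. The deposited values are raw counts per gene symbol, made by the authors; the submitters' processing notes name STAR 2.5, mm10 and DESeq2, while for the counter, its annotation and use of strand the answer is not given in the sources used here. Counts were analysed with edgeR 4.0.16 in R 4.3.3 (TMM, filterByExpr, robust quasi-likelihood fit, two-sided test), in fits of 12 TRAP libraries (11393 genes), 6 total RNA libraries (12945 genes) and 12 libraries of infarcted hearts (13267 genes), with DESeq2 1.42.0, other scalings, no filter, a replicate block and single libraries left out as alternatives. The code was tested on simulated data. The members and lists were chosen with earlier results of these data known. The text names 9 of the 10 genes of the rule, Sav1, and list genes that passed (up to 4 per list and comparison, those of smallest p); the remaining gene is not reported here, and counts over members cover the 9. Positions, lengths and copies are from GENCODE M21 (GRCm38). The floor of 3 counts is 0.124 to 0.926 CPM of the library total, without TMM scaling, and covers counting error only.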

Additional observations from a re-analysis of the deposited data

How the results depend on the processing

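Over 72 differences of the 9 genes (8 comparisons each), 1118 of 1143 values under the alternatives kept their side of the threshold and their direction or size; 15 lost a call, 3 gained one, 7 changed sign by more than the standard error without a call, and 0 called values reversed. The number of the 9 genes passing for infarction in Salv cKO, 2, was 1 with upper quartile scaling, 0 without the libraries with Y chromosome counts, and 0 to 1 with a library left out. For TRAP against total RNA it was 7, with 6 to 8 under the alternatives, and in the other 6 comparisons it stayed at 0. With the replicate number as a block the counts were 2, 7 and 0, and the block changed no call of these genes. Residuals of TRAP libraries with the same number had a mean correlation of 0.03 (-0.19 to 0.24), so the numbers were not taken as pairs. Counts over all genes moved more: with no filter 106 in place of 38 passed for genotype after infarction, 651 in place of 291 after sham, 566 in place of 123 for infarction in control, 160 in place of 0 for the interaction, 363 in place of 33 in total RNA and 302 in place of 57 for genotype by RNA fraction; with DESeq2 they were 74, 603, 466, 110, 151 and 272. With a library left out the all-gene counts ran from 104 to 378 for genotype after sham, 0 to 628 for infarction in control, 1100 to 2005 in Salv cKO and 16 to 140 for genotype by RNA fraction; without the libraries with Y chromosome counts the first 3 were 84, 673 and 1546. The block gave 408 for infarction in control, 59 in total RNA and 31 for genotype by RNA fraction. Summing members with their copies, and fitting all 18 libraries together (for the 2 comparisons that include total and TRAP RNA), were chosen after seeing the data and changed no call of the 9 genes. Depth limits Fundc1 most, with 32 to 248 counts in a TRAP library.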
